A study of Mus musculus with 29 samples.

Results

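The genes described here are 3 fatty acid binding proteins (Fabp7, Fabp5 and Fabp3), 6 acyl-CoA synthetases (Acsbg1, Acsl3, Acsl6, Acsl1, Acsl4 and Acsl5) and the acyl-CoA binding protein Dbi, followed across ribosome-bound RNA of astrocytes and of microglia of the mouse brain. They were chosen by name, and each matched 1 row, so that they make up 10 of the 36172 gene rows of the deposited table. The part of the study's sequencing used here holds 29 libraries from 9 mice in 6 groups. Mice carried 1 copy of a tamoxifen-inducible cre and 1 copy of the NuTRAP allele, which after recombination tags ribosomes with an EGFP-L10a fusion, and were either Aldh1l1-Cre/Ert2+; NuTRAP+ (Aldh1l1-NuTRAP, 3 mice, numbered 290, 293 and 294) or Cx3cr1-Cre/Ert2+; NuTRAP+ (Cx3cr1-NuTRAP, 6 mice, numbered 155, 192, 194, 209, 210 and 277). All were given tamoxifen at 100 mg/kg on 5 days at about 3 months of age, and no uninduced or cre-negative mouse is among the libraries. From each mouse, 1 brain hemisphere was homogenized and cleared (the input), tagged ribosomes were pulled down with an antibody to GFP (the positive fraction), and the unbound remainder was kept (the negative fraction). Positive and negative fractions were analysed for both lines, and inputs of 6 and conventionally isolated whole tissue of 5 mice for the Cx3cr1-NuTRAP line only. The Aldh1l1 driver marks astrocytes, whereas the Cx3cr1 driver is active in microglia and in other macrophages of the brain, and 1 Cx3cr1 allele of these mice carries the cre. The sex of each mouse was not used here.

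Fatty acids are poorly soluble and move through cytoplasm bound to small fatty acid binding proteins. Acyl-CoA synthetases activate them to acyl-CoA thioesters, which commits them to oxidation, to membrane lipids or to storage, and acyl-CoA binding protein carries the product. In brain, most fatty acid oxidation takes place in astrocytes; FABP7 (brain lipid binding protein) is a classical protein of radial glia and astrocytes, FABP5 occurs in several neural cell types and FABP3 mainly in neurons. The study used Fabp7 as one of its astrocyte markers.

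On the mm10 build the binding proteins lie at chr10:57784923-57788450 (Fabp7), chr3:10012585-10016610 (Fabp5) and chr4:130308778-130315463 (Fabp3), all on the + strand. The synthetases lie at chr9:54604997-54661885 (Acsbg1, - strand), chr1:78657825-78707743 (Acsl3), chr11:54303824-54361539 (Acsl6), chr8:46471042-46536050 (Acsl1), chrX:142317993-142390535 (Acsl4, - strand) and chr19:55253369-55296628 (Acsl5), on the + strand where not stated. Dbi lies at chr1:120113280-120121096 on the - strand.

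The promoters of Fabp7 and Acsbg1, which were high in the same libraries, and of Fabp3, the binding protein that was low in them, are shown for comparison. Each run is the 250 bases before the annotated start in RefSeq (GRCm38.p6), read 5′ to 3′ on the strand of the gene, and capitals mark matches on either strand to 7 short motifs.
Fabp7, chr10:57784673-57784922, + strand: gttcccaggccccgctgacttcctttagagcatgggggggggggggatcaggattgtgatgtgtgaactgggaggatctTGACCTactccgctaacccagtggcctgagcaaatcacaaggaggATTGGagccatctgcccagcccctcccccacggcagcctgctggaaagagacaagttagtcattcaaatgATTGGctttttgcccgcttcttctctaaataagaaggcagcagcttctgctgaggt
Acsbg1, chr9:54661886-54662135, - strand: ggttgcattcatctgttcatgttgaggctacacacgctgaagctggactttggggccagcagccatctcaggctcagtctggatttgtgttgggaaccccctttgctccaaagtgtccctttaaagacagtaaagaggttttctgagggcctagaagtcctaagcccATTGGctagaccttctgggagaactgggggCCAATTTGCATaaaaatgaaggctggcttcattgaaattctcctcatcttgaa
Fabp3, chr4:130308488-130308737, + strand: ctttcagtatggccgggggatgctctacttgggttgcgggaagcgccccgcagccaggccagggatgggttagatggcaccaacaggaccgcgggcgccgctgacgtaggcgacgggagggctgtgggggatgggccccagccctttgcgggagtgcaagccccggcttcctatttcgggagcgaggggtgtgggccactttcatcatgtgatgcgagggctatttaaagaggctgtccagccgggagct
The motifs, chosen after these sequences had been read, were the CCAAT box, the GC box GGGCGG, the TATA box TATAAA, the E-box CACGTG, the nuclear receptor core motif AGGTCA, the octamer ATGCAAAT and the RBPJ motif GTGGGAA. The Fabp7 promoter held 2 matches to CCAAT, whose first bases on the strand of the gene lay 126 and 56 bases before the start, and 1 to AGGTCA, 171 bases before it. That of Acsbg1 held CCAAT 83 and 53 bases before the start, the second overlapping the octamer ATGCAAAT at 50 bases. None of the 7 was found in the window of Fabp3. CCAAT occurred in 33.8%, AGGTCA in 14% and ATGCAAAT in 1.6% of the 32851 RefSeq promoter windows of this length. The GC content of the windows was 54.8% for Fabp7, 48.4% for Acsbg1 and 64.8% for Fabp3, against a median of 52.4%. A window was found for 9 of the 10 genes, and Fabp5 had none. The first of the 7 motifs was not limited to genes that were high in Aldh1l1-NuTRAP positive fractions. It also occurred in at least 1 window of Acsl3, Acsl6 and Dbi, which were higher there, and of Acsl1 and Acsl5, which were lower. The window of Acsl4, also lower, held no match to it. Whether any motif bears on these levels was not tested.

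Libraries held 4260949 to 26857866 counts, the smallest being the whole tissue of mouse 210, and every gene described here had at least 142.5 counts in each library. Levels are given as counts per 1000000 of a library's total (CPM), and fold changes come from edgeR's quasi-likelihood test after TMM scaling, with p values adjusted by Benjamini-Hochberg over all genes tested (padj) and called at 0.05. The labelled cell types were checked against markers. The summed level of 6 astrocyte markers was 10360 to 17790 CPM in Aldh1l1-NuTRAP positive fractions and 2237 to 3061 CPM in their negative fractions, and that of 7 microglial markers was 2861 to 6767 CPM in Cx3cr1-NuTRAP positive fractions and 351.8 to 389.3 CPM in inputs. Markers of other cells were not absent from either pulldown: 4 choroid plexus markers summed to 2822 to 3337 CPM in Aldh1l1-NuTRAP positive and 470.1 to 617.9 CPM in negative fractions, and the astrocyte markers still summed to 2019 to 3029 CPM in Cx3cr1-NuTRAP positive fractions. In these bulk samples, fewer cells of a type and less RNA per cell cannot be told apart.

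**Figure D1:**
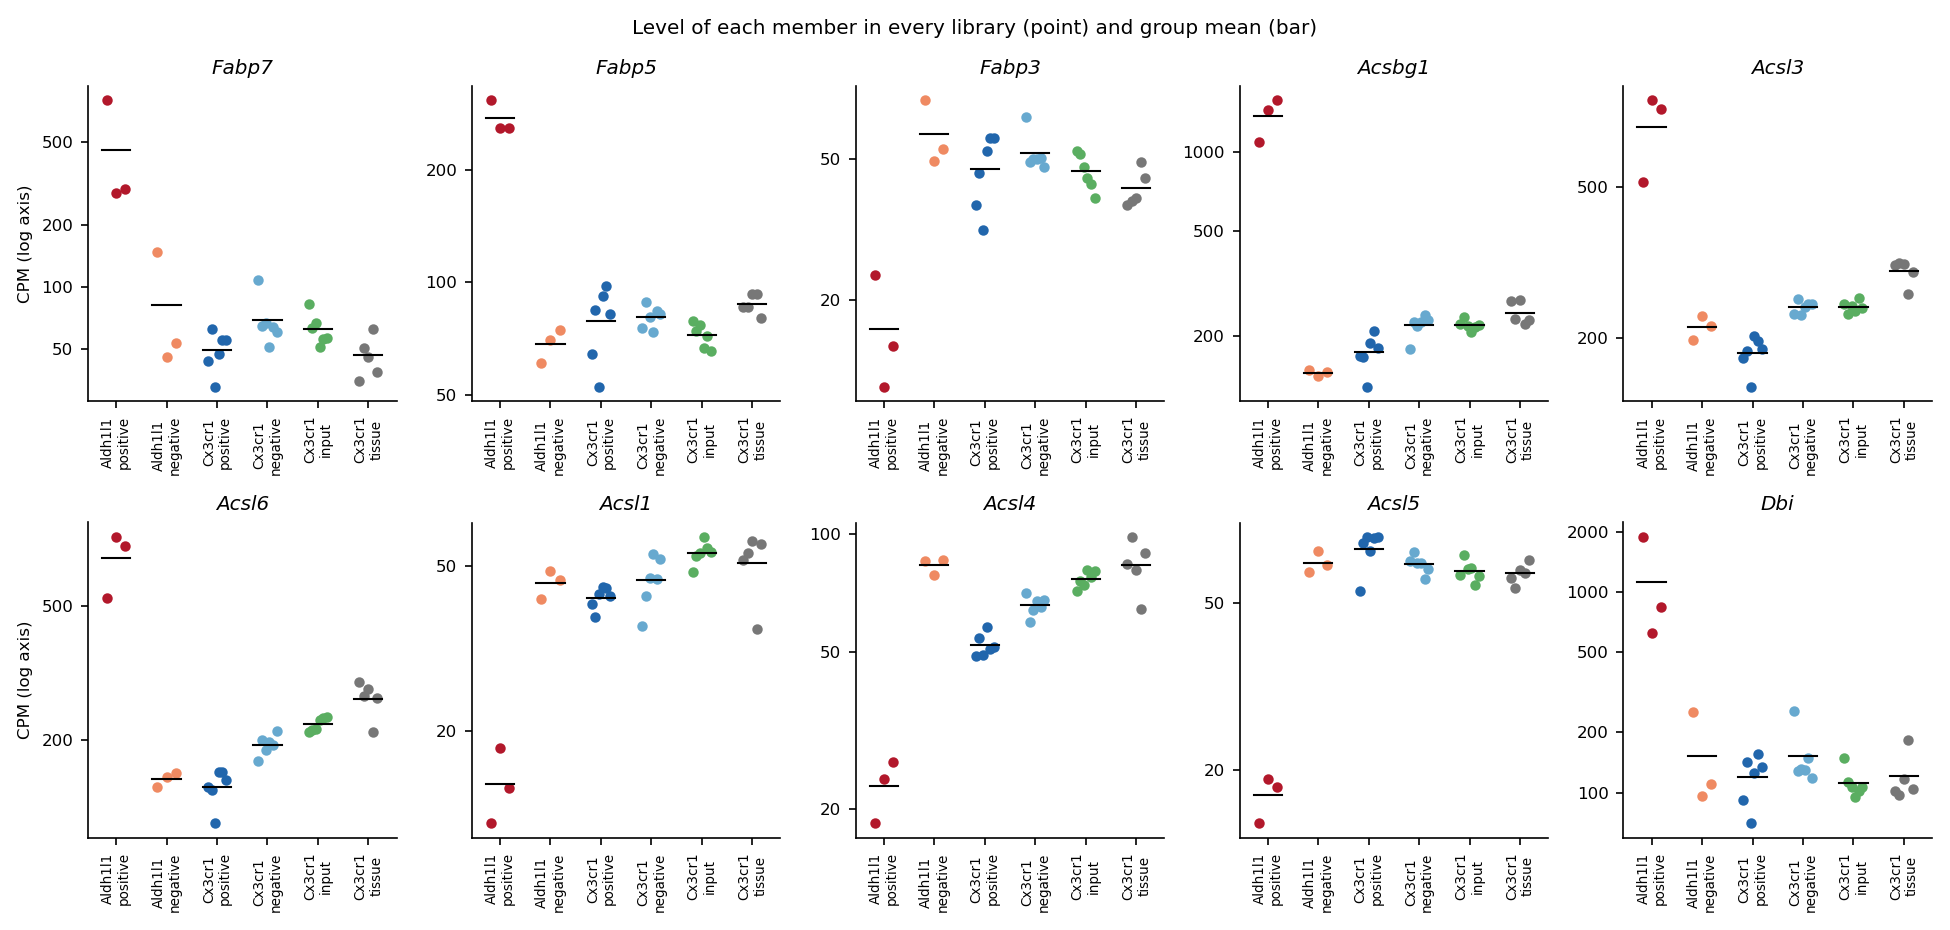
CPM (log axis, different range in each panel) of the 10 genes in the 29 libraries, with 1 point for each library and a bar at the group mean. In Aldh1l1-NuTRAP positive fractions 6 genes (Fabp7, Fabp5, Acsbg1, Acsl3, Acsl6 and Dbi) lay above and 4 (Fabp3, Acsl1, Acsl4 and Acsl5) below all negative fractions of the line.

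In the Aldh1l1-NuTRAP line, astrocyte ribosome-bound RNA was compared with the unbound RNA of the same homogenate. All 10 genes differed, 6 being higher and 4 lower in the positive fraction, where 26.8% and 24.8% of the 13324 genes tested were called higher and lower. The ranges of the 3 positive and 3 negative fractions did not overlap for any of the 10, nor for 63% of all genes tested. The median log2 fold change was 2.22 over the 10 genes and 0.04 over all genes tested.

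Of the binding proteins, Fabp7 measured 797.2, 283.2 and 296.8 CPM in the positive and 146.8, 45.64 and 53.32 CPM in the negative fractions of mice 290, 293 and 294. Mouse 290 was the highest in both fractions, by a wide margin, and even the lowest positive fraction exceeded the highest negative fraction. The log2 fold change was 2.84 ± 0.62 (SE; padj = 0.00712), a fold of 7.14. Fabp5, the epidermal type, measured 306.2, 258.6 and 258.8 CPM against 60.86, 70.1 and 74.44 CPM. Its positive fractions lay close together, and it rose by 2.35 ± 0.17 (padj = 6.34e-05).

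Fabp3, the heart type, went the other way. It measured 23.53, 11.41 and 14.85 CPM in the positive and 73.18, 49.49 and 53.23 CPM in the negative fractions, again with mouse 290 highest in both. Its log2 fold change was -1.48 ± 0.31 (padj = 0.00602). Without mouse 294 it was -1.44 with padj = 0.0546, in a fit of fewer mice in which calls over all genes also fell, from 6872 to 3588. Fabp3 was lower in the positive fraction in 3 of 3 mice.

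Among the synthetases, Acsbg1, the bubblegum enzyme that activates long and very long chain fatty acids, showed the largest difference of the 10 genes. It measured 1097, 1447 and 1578 CPM in the positive fractions of mice 290, 293 and 294 and 148.2, 141.1 and 146.2 CPM in their negative fractions. The negative fractions were nearly equal, whereas mouse 290 was the lowest of the positive ones. Acsbg1 rose 12-fold (log2 fold change 3.58 ± 0.18, padj = 3.38e-05), further than 99.6% of the genes tested.

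Acsl6, which favours docosahexaenoic acid and is abundant in brain, measured 528, 798.3 and 749.3 CPM against 145.3, 155.7 and 160.3 CPM, and rose 5.71-fold (log2 fold change 2.51 ± 0.19, padj = 8.04e-05). Acsl3, an enzyme of the endoplasmic reticulum and of lipid droplets, measured 514.1, 845.3 and 804.1 CPM against 198.1, 228.3 and 215.1 CPM, a rise of 4.28-fold (2.10 ± 0.21, padj = 0.000223). For both enzymes, as for Acsbg1, the positive fraction of mouse 290 was the lowest of the 3, the reverse of its place for Fabp7.

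The other 3 synthetases fell. Acsl4, which prefers arachidonic acid, measured 18.38, 23.76 and 26.39 CPM in the positive and 85.61, 78.61 and 86.03 CPM in the negative fractions (log2 fold change -1.52 ± 0.17, padj = 0.000357). Acsl5, an enzyme prominent in intestine, measured 14.91, 19.03 and 18.24 CPM against 59.33, 66.7 and 61.6 CPM (-1.50 ± 0.15, padj = 0.00026). Acsl1, the main isoform of fat, liver and heart, measured 11.96, 18.19 and 14.54 CPM against 41.52, 48.56 and 46.11 CPM (-1.26 ± 0.19, padj = 0.00131). In each of the 3 mice these genes were at 0.215 to 0.375 of the level in the negative fraction. In the same fractions 6 of 6 neuronal, 5 of 6 oligodendrocyte and 7 of 7 microglial markers were lower and 4 of 4 choroid plexus markers were higher. The summed level of 6 neuronal markers was 1265 to 1729 CPM in positive and 5494 to 6884 CPM in negative fractions and that of 6 oligodendrocyte markers 1153 to 1340 CPM and 5852 to 7131 CPM, and their part in these 3 differences was not tested.

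Dbi encodes acyl-CoA binding protein, also known as diazepam binding inhibitor, the precursor of peptides that act on GABA-A receptors and on the mitochondrial protein TSPO. It measured 1884, 622.8 and 845.1 CPM in positive and 251.6, 95.97 and 110.7 CPM in negative fractions, so that mouse 290 was highest in both, as for Fabp7. The rise was 9.3-fold (log2 fold change 3.22 ± 0.56, padj = 0.00268).

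Fold changes exceed the CPM ratios because TMM scaled the 3 positive fractions of this line by 0.823 to 0.854. Scaling to library totals alone shifted all log2 fold changes of this comparison by -0.35 and the share of called genes that were higher from 51.9% to 33.6%. Each of the 10 genes kept its direction and its call under it.

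**Figure D2:**
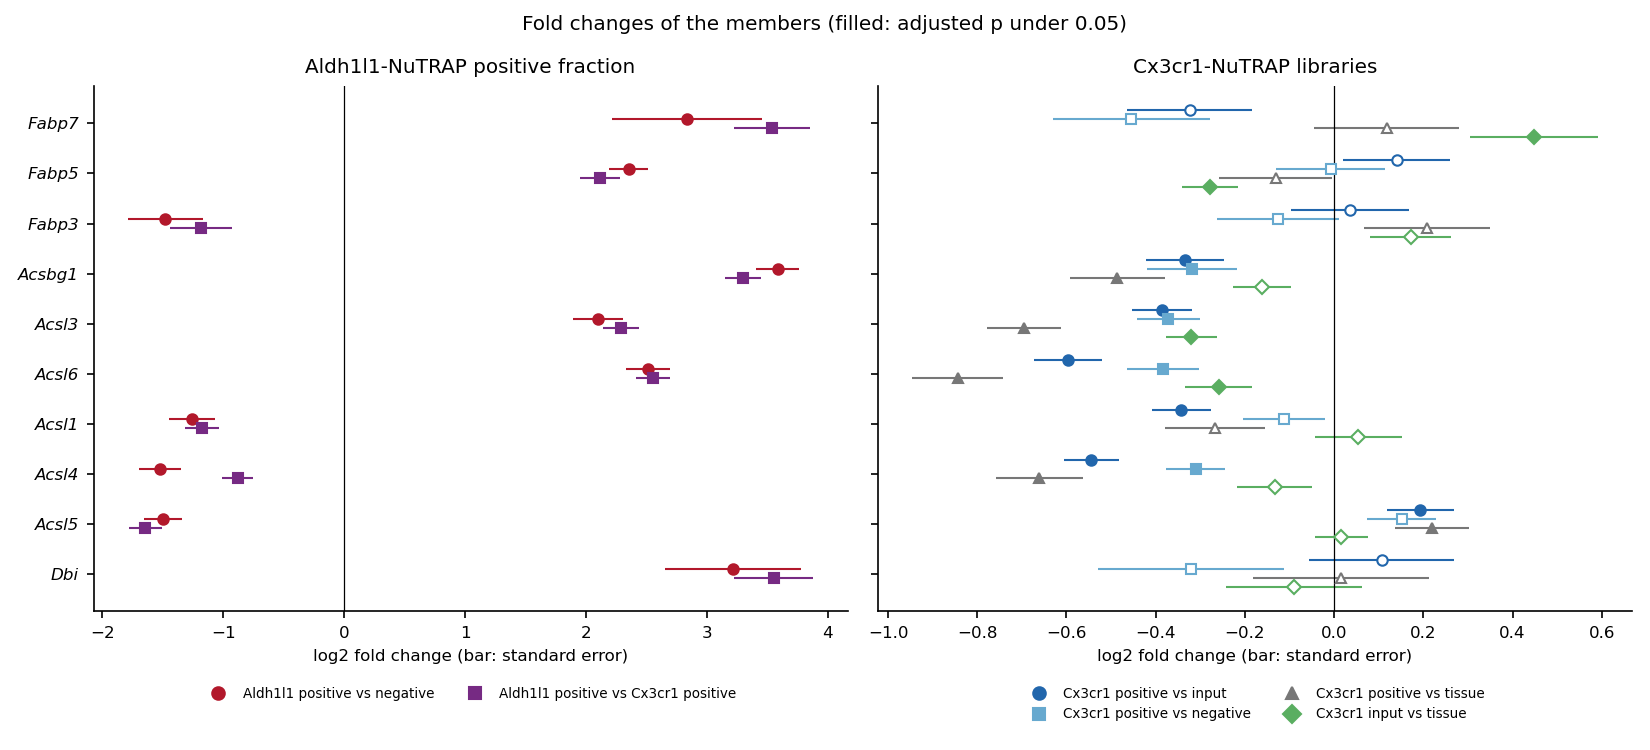
Log2 fold changes (points; bars are SE) of the 10 genes, filled where the adjusted p was under 0.05: left, the Aldh1l1-NuTRAP positive fraction against its negative fraction and against the Cx3cr1-NuTRAP positive fraction, and right, 4 comparisons within the Cx3cr1-NuTRAP line on a finer axis. Values run from -1.64 (Acsl5) to 3.58 (Acsbg1) on the left and from -0.84 (Acsl6 against tissue) to 0.45 (Fabp7, input against tissue) on the right.

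The positive fractions of the lines were compared with each other, a contrast in which cell type, line and cohort cannot be told apart. The study delayed brain collection after tamoxifen in the Cx3cr1-NuTRAP line, so that any difference in time since tamoxifen cannot be told apart either. All 10 genes were called in the same direction as against the Aldh1l1-NuTRAP negative fraction, and these comparisons share the Aldh1l1-NuTRAP positive fractions. Of 13679 genes tested, 30.6% were called higher and 33.1% lower. Dbi was 11.7-fold higher in astrocyte RNA (log2 fold change 3.55 ± 0.33), Fabp7 11.6-fold (3.54 ± 0.31), Acsbg1 9.84-fold (3.30 ± 0.15), Acsl6 5.87-fold (2.55 ± 0.14), Acsl3 4.88-fold (2.29 ± 0.15) and Fabp5 4.33-fold (2.12 ± 0.17). Acsl5 was 3.12-fold lower (-1.64 ± 0.14), Fabp3 2.28-fold (-1.19 ± 0.26), Acsl1 2.26-fold (-1.18 ± 0.14) and Acsl4 1.84-fold (-0.88 ± 0.13). In the same comparison 6 of 6 neuronal markers (median log2 fold change -1.475) and 5 of 6 oligodendrocyte markers (-1.427) were lower, and 1 was higher. All 7 microglial markers were lower and 4 of 4 choroid plexus markers higher. Neuronal markers summed to 4458 to 6855 CPM in Cx3cr1-NuTRAP positive fractions, 6258 to 6587 CPM in inputs and 1265 to 1729 CPM in Aldh1l1-NuTRAP positive fractions. The part of these cells in the differences was not tested. The largest padj of the 10 was that of Fabp3, at 0.002. Scaling to library totals moved the log2 values by -0.31 and the share of called genes that were higher from 48% to 31.3%, without changing a call among the 10.

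In the Cx3cr1-NuTRAP line the positive fraction was compared with the input, the negative fraction and whole tissue; these comparisons share the 6 positive fractions. The differences were small beside those in astrocyte RNA. Against input, 5 of the 10 genes were lower (Acsl6, Acsl4, Acsl3, Acsl1 and Acsbg1) and 1 was higher (Acsl5), with 25.6% and 23.2% of the 13840 genes tested called lower and higher. None of the 3 binding proteins and not Dbi passed the test.

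Acsl6 measured 113.8 to 160.9 CPM (median 149.4) in the 6 positive fractions and 211.6 to 235.1 CPM (median 222.7) in the 6 inputs, with no overlap. It fell by 0.60 ± 0.08 on the log2 scale (padj = 2.78e-05), and it was lower in the positive fraction of 6 of 6 mice. Acsl4 ranged from 48.87 to 58.04 CPM (median 51.3) against 71.77 to 80.82 CPM (median 76.92), a log2 fold change of -0.54 ± 0.06 (padj = 8.68e-06). For both genes the highest positive fraction stayed below the lowest input.

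Acsl3, at 148.9 to 202.7 CPM (median 186.4) against 231.5 to 254.5 CPM (median 241.2), changed by -0.39 ± 0.07 (padj = 0.00035). Acsl1, at 37.58 to 44.44 CPM (median 42.46) against 48.26 to 58.75 CPM (median 53.85), changed by -0.34 ± 0.07 (padj = 0.00076). Neither overlapped its inputs, as was the case for 25.3% of all genes tested. Acsbg1 did overlap them, at 128.2 to 208.9 CPM (median 173.8) against 206.3 to 236.7 CPM (median 219.9); its log2 fold change was -0.33 ± 0.09 (padj = 0.00624), and without mouse 192 it was -0.27 with padj = 0.0535. In the same libraries 6 of 6 oligodendrocyte markers and 4 of 6 astrocyte markers were lower than in input, with summed levels of 1322 to 3480 against 4431 to 5096 CPM and of 2019 to 3029 against 3147 to 3628 CPM; the positive fraction of mouse 194 was the lowest for both lists and for Acsl6, Acsl3 and Acsbg1. The part of these cells in the 5 differences was not tested.

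Acsl5 was the only one of the 6 synthetases described here that was called higher in the microglial pulldown. It measured 53.5 to 72.13 CPM (median 70.65) in positive fractions and 55.37 to 65.16 CPM (median 59.52) in inputs, was higher in 5 of 6 mice and lower in mouse 155, and rose by 0.19 ± 0.07 (padj = 0.0443). With the mouse as a replicate block the value was 0.19 with padj = 0.0661. With library totals padj was 0.0714, with no filter on low counts 0.0844, and without mouse 194, 209, 210 or 277 it was 0.0575, 0.0732, 0.146 and 0.141. The difference thus sat at the edge of the test.

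Of the genes not called, Fabp7 measured 32.89 to 62.46 CPM (median 51.5) in positive fractions and 51.05 to 82.65 CPM (median 60.07) in inputs. The log2 difference of -0.32 ± 0.14 (padj = 0.0692) rested on mice 155 and 194, at 0.53 and 0.492 of their inputs, the other 4 mice being at 0.933 to 0.994. Without both mice, a choice made after the data were seen, it was -0.01. Fabp5 measured 52.6 to 98.02 CPM against 65.38 to 78.69 CPM (log2 difference 0.14, padj = 0.346), Dbi 70.44 to 155.1 CPM against 95.62 to 148.9 CPM (0.11, padj = 0.61) and Fabp3 31.61 to 57.45 CPM against 38.82 to 52.81 CPM (0.04, padj = 0.838). All 3 overlapped their inputs, and mice 155 and 194 were the lowest 2 positive fractions for all 3 genes. Those positive fractions were also low in short transcripts in general, as described below for Fabp7. Without both mice the log2 difference was 0.44 for Dbi, 0.39 for Fabp5 and 0.29 for Fabp3, given with no test since the mice left out were the lowest. Without mouse 194 alone that of Fabp5 was 0.28 (padj = 0.0301).

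Against the negative fraction, the contrast that both lines have, 4 genes were lower (log2 fold change -0.38 for Acsl6, -0.37 for Acsl3, -0.32 for Acsbg1 and -0.31 for Acsl4) and none was higher, where 11.6% and 12.8% of 13777 genes were called lower and higher. Negative fractions measured 173.4 to 212.6 CPM (median 195.7) for Acsl6, 229.4 to 253.3 CPM (median 243.8) for Acsl3 and 59.82 to 70.96 CPM (median 66.5) for Acsl4, none of which overlapped the positive fractions, where 13.1% of all genes tested did not. Their padj was at most 0.00379. Acsbg1 (179.2 to 240.1 CPM in negative fractions, padj = 0.0327) overlapped and lost its call without mouse 192, 194, 209 or 277, with padj of 0.141, 0.0789, 0.0585 and 0.0921. Fabp7 did not pass the test (-0.45 ± 0.18, padj = 0.073), with mice 155 and 194 at 0.406 and 0.493 of their negative fractions and the other 4 at 0.866 to 0.968. Without mouse 155 its value was -0.25 (padj = 0.193), and without both mice it was -0.09, given with no test. Acsl5 (0.15, padj = 0.167) passed it without mouse 155, where the value was 0.21 with padj = 0.0173. Dbi (-0.32, padj = 0.283), Fabp3 (-0.13, padj = 0.542), Acsl1 (-0.11, padj = 0.403) and Fabp5 (-0.01, padj = 0.973) did not pass it. In the same comparison 6 of 6 oligodendrocyte markers (median log2 fold change -0.70), 4 of 6 astrocyte markers (-0.44) and 3 of 4 oligodendrocyte precursor markers (-0.57) were lower, the first 2 lists summing to 4669 to 5176 and to 2491 to 3401 CPM in negative fractions, and their part in the differences of Acsl6, Acsl3, Acsbg1 and Acsl4 was not tested.

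Whether the contrast of positive and negative fraction differed between the lines was tested directly as the interaction of line and fraction. It differed for all 10 genes, 6 with the larger log2 ratio in Aldh1l1-NuTRAP mice and 4 with the smaller, where 25.6% and 29.9% of 13986 genes were called. The differences in log2 ratio were largest for Acsbg1 (3.86 ± 0.19), Dbi (3.51 ± 0.53) and Fabp7 (3.26 ± 0.53), and -1.69 ± 0.14 for Acsl5 at the other end. The highest padj was 0.000748, for Fabp3. Cell type, line, cohort and any difference in time since tamoxifen cannot be told apart in the interaction. Under library totals the log2 values shifted by -0.28 and the share of called genes with a higher ratio from 46.1% to 31.3%, and all 10 calls remained.

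Against whole tissue, labelled as slices, with RNA isolated conventionally, 4 genes were lower and 1 was higher in the Cx3cr1-NuTRAP positive fraction, with 24.4% and 27.5% of 13474 genes called. Acsl6 measured 297.2, 270.4, 282.7, 211.2 and 266.1 CPM in the tissue of mice 192, 194, 209, 210 and 277, and Acsl3 312.1, 315.5, 313.6, 261 and 299.1 CPM. In both, mouse 210 was the lowest tissue and yet higher than any positive fraction. The log2 fold change was -0.84 ± 0.10 for Acsl6 (padj = 2.7e-05), -0.70 ± 0.08 for Acsl3 (padj = 2.37e-05), -0.66 ± 0.10 for Acsl4 (padj = 0.000125) and -0.49 ± 0.11 for Acsbg1 (padj = 0.00216), without overlap, as for 28.6% of all genes tested. Acsl5 was higher by 0.22 ± 0.08 (padj = 0.0403), a call lost with the mouse as a replicate block (0.21, padj = 0.068) and without mouse 192, 194, 209, 210 or 277 (padj of 0.12, 0.365, 0.123, 0.113 and 0.0826). The same call was lost with RLE factors (padj = 0.0647), library totals (0.078), no filter (0.114), a minimum of 100 counts (0.0655) and in DESeq2 (0.055). Acsl1 (-0.27, padj = 0.0616) was called lower with RLE factors, library totals, a minimum of 100 counts, all 6 groups in 1 fit and DESeq2 (-0.30 to -0.29, padj 0.0225 to 0.046). It also passed the test without mouse 210, whose tissue held 35.12 CPM against 51.74 to 57.36 CPM in the others (-0.40, padj = 0.00124), and without mouse 155 (-0.33, padj = 0.0436). The binding proteins and Dbi did not pass it, at 0.21 for Fabp3 (padj = 0.234), 0.12 for Fabp7 (padj = 0.566), -0.13 for Fabp5 (padj = 0.404) and 0.01 for Dbi (padj = 0.956). In the same comparison 6 of 6 oligodendrocyte markers (median log2 fold change -1.24) and 6 of 6 astrocyte markers (-0.46) were lower and 5 of 6 olfactory bulb markers tested (1.86) were higher, with astrocyte markers summing to 3468 to 3849 CPM and oligodendrocyte markers to 6232 to 8474 CPM in tissue, and their part in the differences of Acsl6, Acsl3, Acsl4 and Acsbg1 was not tested.

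Input was also compared with whole tissue, a contrast in which the clearing of the homogenate, the RNA isolation and the piece of brain taken cannot be told apart. Of 13610 genes tested, 16.3% were higher and 14.2% lower in input; of the 10, 1 was higher and 3 were lower. Fabp5 measured 85.86, 86.12, 92.91, 92.97 and 80.22 CPM in tissue and 65.38 to 78.69 CPM (median 72.93) in inputs, with a log2 fold change of -0.28 ± 0.06 (padj = 0.00406) and no overlap. That of Acsl3 was -0.32 ± 0.06 (padj = 0.000903), also with no overlap, as for 13.9% of all genes tested. Both genes were lower in input than in tissue in 5 of 5 mice.

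The remaining calls were weak. Fabp7 measured 35.06, 50.59, 46.02, 62.57 and 38.88 CPM in tissue, the only gene called higher in input (0.45 ± 0.14, padj = 0.0294), with mouse 210 going the other way. The call was lost with all 6 groups in 1 fit (0.41, padj = 0.347), with the mouse as a replicate block (0.36, padj = 0.0721) and without mice 155 and 194 (0.35, padj = 0.122), and padj was 0.0531, 0.123, 0.0753, 0.0522 and 0.0886 without mouse 155, 192, 194, 209 and 277. Acsl6 was lower (-0.26 ± 0.08, padj = 0.0183), a call lost with the block (-0.24, padj = 0.0879) and without mouse 192, 194 or 209 (padj of 0.108, 0.0737 and 0.0643) or without both 155 and 194 (-0.22, padj = 0.125). With all mice Fabp3 (0.17, padj = 0.169), Acsbg1 (-0.16, padj = 0.0703) and Acsl4 (-0.13, padj = 0.252) did not pass the test, although 1 processing alternative called Acsbg1. Without mouse 210, the shallowest library, Fabp3 was higher (0.24, padj = 0.0396) and Acsbg1 (-0.19, padj = 0.0334) and Acsl4 (-0.21, padj = 0.0311) were lower in input. Acsl1 (0.05, padj = 0.716), Acsl5 (0.02, padj = 0.861) and Dbi (-0.09, padj = 0.697) did not pass the test. Markers of cells and regions moved in the same comparison, with 5 of 5 endothelial and 6 of 6 oligodendrocyte markers lower and 6 of 7 olfactory bulb markers higher in input. Oligodendrocyte markers summed to 4431 to 5096 CPM in input against 6232 to 8474 CPM in tissue (median log2 fold change -0.44), and olfactory bulb markers to 133.7 to 187.4 against 24.52 to 96.12 CPM. Their part in the differences of Fabp7, Fabp5, Acsl3 and Acsl6 was not tested.

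Levels of different genes were compared per kilobase of exon. In Aldh1l1-NuTRAP positive fractions Dbi stood at 786 ± 473 CPM per kilobase (SD, n = 3), Acsbg1 at 381 ± 69.1, Fabp7 at 367 ± 234, Acsl3 at 166 ± 41.4, Fabp5 at 77.0 ± 7.69, Acsl6 at 69.8 ± 14.5 and Fabp3 at 20.2 ± 7.59. Acsl4, Acsl5 and Acsl1 were at 4.23 ± 0.756, 3.58 ± 0.45 and 1.42 ± 0.299. Dbi was above Acsbg1 and Fabp7 in each of the 3 libraries, and remained so with RefSeq-matched transcripts (2108 ± 1270 against 477 ± 86.5 and 571 ± 364 CPM per kilobase). Acsbg1 and Fabp7 overlapped, as did Acsl4 and Acsl5. The place of Fabp5 depends on length, since it overlapped Acsl6 with all exons and with RefSeq-matched transcripts stood at 278 ± 27.8 CPM per kilobase, above Acsl6 (163 ± 34) and near Acsl3 (230 ± 57.5).

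Of the summed level per kilobase of the 3 binding proteins, Fabp7 held 76.5 ± 7.16% in astrocyte and 33.5 ± 3.23% in microglial positive fractions (SD, n = 3 and 6), and Fabp3 held 4.58 ± 0.859% and 47.9 ± 2.94%. Of the 6 synthetases, Acsbg1 held 61.1 ± 2.32% and 36.2 ± 2.2%, and Acsl5 held 0.578 ± 0.0528% and 10.6 ± 1.67%. The shares of each pair did not overlap. In the 4 groups of the Cx3cr1-NuTRAP line and in Aldh1l1-NuTRAP negative fractions the shares resembled one another more, Acsbg1 at 29.3 to 36.8% on average. These shares depend on the length used. With the mean length of the transcripts that match RefSeq mRNAs, which is 987 bases for Fabp5 in place of 3567, Fabp7 held 62.5% and Fabp5 35.1% in astrocyte positive fractions, and in microglial positive fractions Fabp5 led at 40.2% with Fabp3 at 28.7%, so that no order of the binding proteins is given for the Cx3cr1-NuTRAP line.

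**Figure D3:**
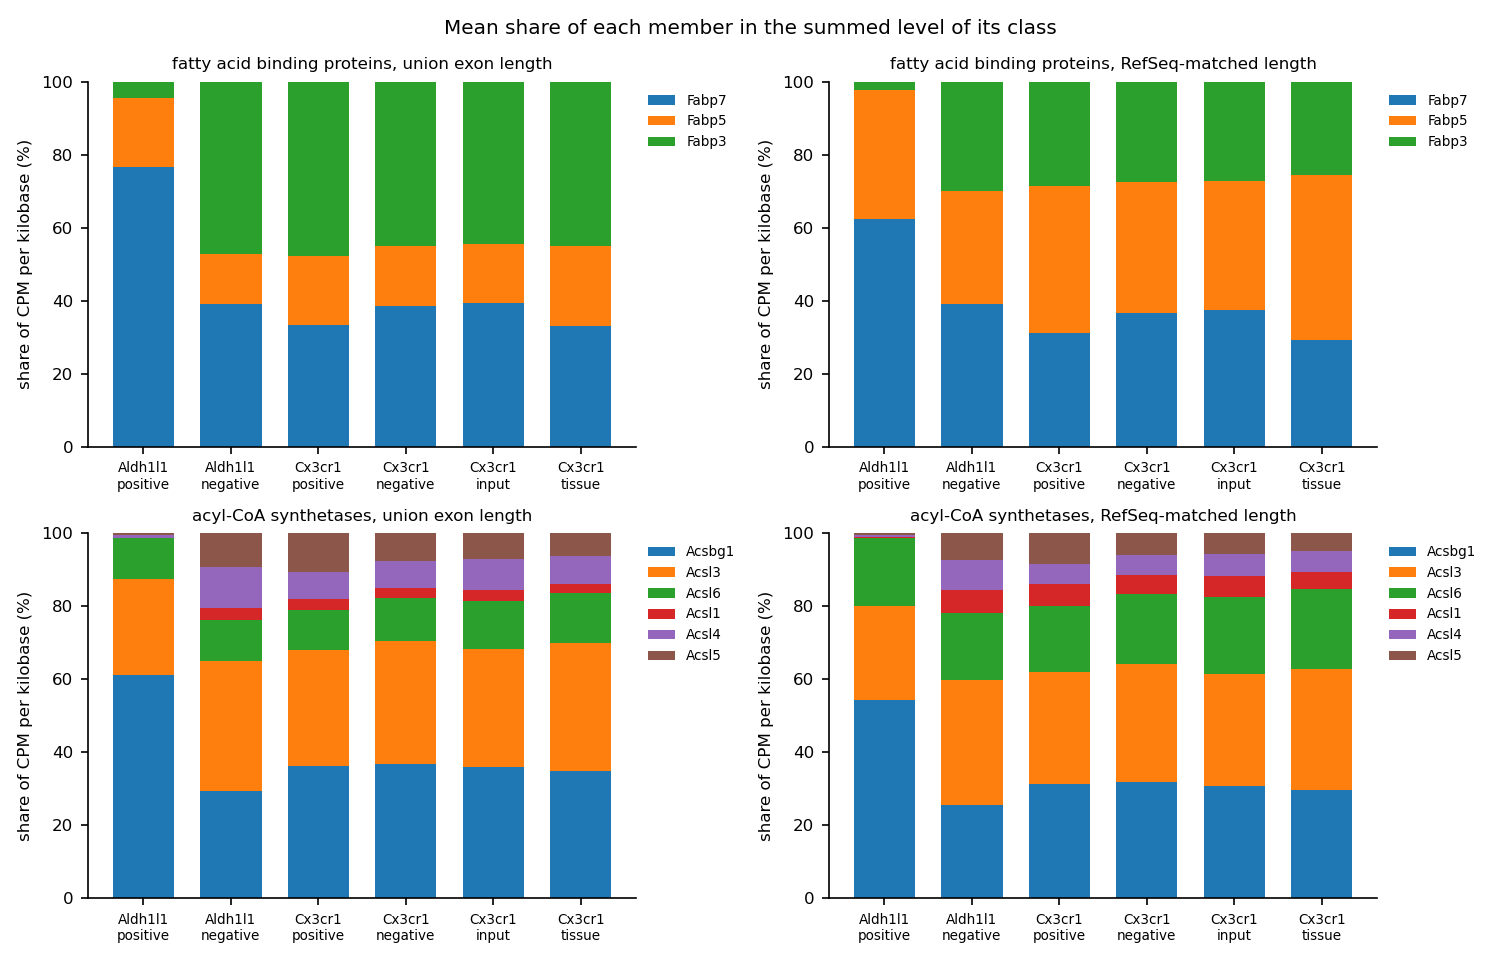
Mean share, in percent, of the summed CPM per kilobase held by each of the 3 binding proteins (top) and 6 synthetases (bottom) in the 6 groups, as stacked bars, with the length of all exons (left) or of RefSeq-matched transcripts (right). With all exons, Fabp7 and Acsbg1 took 76.5% and 61.1% in Aldh1l1-NuTRAP positive fractions, and 33.5% and 36.2% in Cx3cr1-NuTRAP positive fractions.

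Fabp7 varied widely between animals. The SD of its log2 CPM was 0.84 over the 3 Aldh1l1-NuTRAP positive and 0.91 over the 3 negative fractions, higher than in 96.9% and 98.6% of the genes measured in those groups. It was 0.33 in Cx3cr1-NuTRAP positive fractions, 0.36 in negative fractions, 0.25 in inputs and 0.33 in tissues, at the 74.6th, 90.5th, 84.7th and 85.9th percentile. The SD of Dbi was below that of Fabp7 in the Aldh1l1-NuTRAP fractions (0.82 and 0.75) and Cx3cr1-NuTRAP inputs (0.22), and above it in Cx3cr1-NuTRAP positive fractions (0.44), negative fractions (0.41) and tissues (0.37). Fabp5 varied little in Aldh1l1-NuTRAP positive fractions, its highest and lowest differing 1.18-fold (20.9th percentile), but had an SD of 0.34 in Cx3cr1-NuTRAP positive fractions (76.7th percentile), close to that of Fabp7.

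The spread in the Aldh1l1-NuTRAP line was shared by both fractions of a mouse. Levels of Fabp7 differed 2.82-fold between the highest and lowest positive fraction and 3.22-fold between negative fractions, but dividing positive by negative fraction gave 5.43, 6.21 and 5.57 in mice 290, 293 and 294, a 1.14-fold range. For Dbi the ratios were 7.49, 6.49 and 7.64. Acsbg1 showed the opposite arrangement, with negative fractions within 1.05-fold of each other and ratios of 7.40, 10.3 and 10.8. Mouse 290 thus stood apart for Fabp7 and Dbi to a like extent in both fractions.

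**Figure D4:**
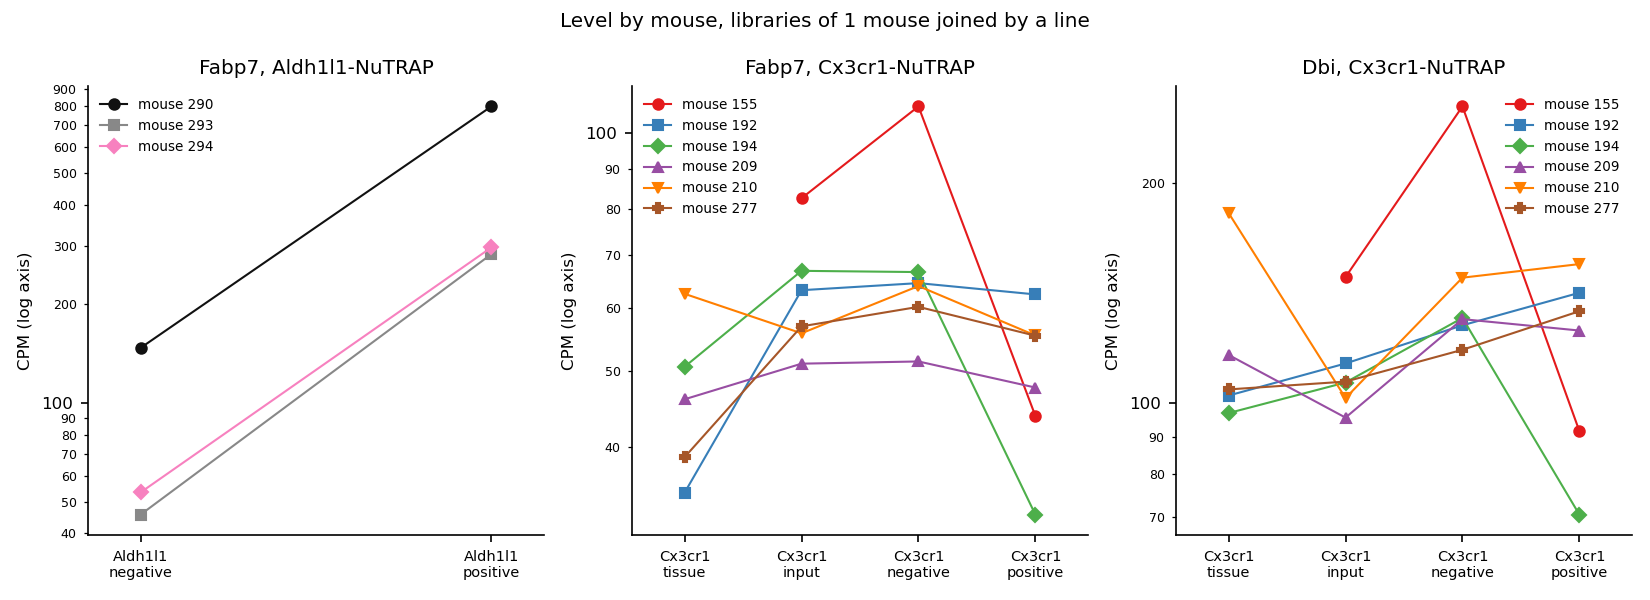
CPM (log axis, different range in each panel) of Fabp7 in both lines and of Dbi in the Cx3cr1-NuTRAP line, with the libraries of a mouse joined by a line across tissue, input and fractions. Mouse 290 was highest in both Aldh1l1-NuTRAP fractions, with lines nearly parallel, whereas mouse 155 was highest in input and negative fraction and among the lowest 2 in the positive fraction.

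In the Cx3cr1-NuTRAP line Fabp7 measured 82.65, 63.23, 66.9, 51.05, 55.77 and 56.91 CPM in the inputs of mice 155, 192, 194, 209, 210 and 277, and 108, 64.55, 66.66, 51.38, 64 and 60.24 CPM in their negative fractions. Positive fractions held 43.84, 62.46, 32.89, 47.62, 55.42 and 55.38 CPM. Inputs and negative fractions ranked the mice in nearly the same order, with mouse 155 at the top, whereas the positive fractions placed mice 194 and 155 at the bottom.

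Of 3 relations tested over the 6 mice with exact permutation tests (two-sided, 720 permutations), that of input and negative fraction passed the threshold after adjustment by Pearson's r (log2 CPM; r = 0.946, p = 0.00417, adjusted over the 3 relations 0.0125). By Spearman's rho it did not fall under it (rho = 0.943, exact permutation p = 0.0167, adjusted 0.05). Without mice 155 and 209, the farthest from the median input, r was 0.747 over 4 mice, given with no test, so that the strength of the relation rests in part on those mice. Adjusted p for Pearson's r was 0.125 without mouse 155, 0.05 without 192 and 0.075 without 194 or 209. Input and positive fraction (r = -0.388, exact permutation p = 0.451, adjusted 0.622; rho = -0.429, p = 0.419, adjusted 0.497) and negative and positive fraction (r = -0.248, p = 0.622, adjusted 0.622 by the same exact test; rho = -0.371, p = 0.497, adjusted 0.497) showed no relation that passed the test, and without the same mice r was -0.632 and -0.587.

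Transcript length moved with these differences. The transcripts of Fabp7 that match RefSeq mRNAs average 804 bases, and those of Dbi, Fabp3 and Fabp5 530, 823 and 987 bases, so that all 4 fall among the genes under 1000 bases. In mouse 290 the median gene of that class (628 and 623 genes) lay 0.82 (positive) and 0.57 (negative fraction) above the group median on the log2 scale, while genes of 6000 bases or more lay 0.48 and 0.33 below it. In mouse 155 the short genes lay 0.33 above in the input and 0.55 above in the negative fraction, and 0.34 below in the positive fraction. The positive fraction of mouse 194 had them 0.25 below, and the tissue of mouse 210 0.18 above.

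Fabp7 followed the class in direction in these libraries and moved further, except in the positive fraction of mouse 155, where it lay 0.23 below the group median. It lay 0.46 and 0.75 above in the input and negative fraction of mouse 155. In the positive fraction of mouse 194 it lay 0.64 below and in the tissue of mouse 210 0.45 above. In mouse 290 it lay 1.43 and 1.46 above the group medians, 0.60 and 0.90 beyond the class. Dbi lay 1.16 and 1.19 above. Fabp5, of the same class, lay only 0.24 above in the positive and 0.20 below (-0.20) in the negative fraction of that mouse. Over 29 libraries the deviation of a gene from its group median and that of the class had a Pearson r of 0.916 for Fabp7, 0.933 for Dbi, 0.870 for Fabp3 and 0.395 for Fabp5, as a description of libraries that share mice, depth and preparation. The sign of the deviations was the same in 21 libraries for Fabp7, 24 for Dbi, 22 for Fabp3 and 20 for Fabp5.

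Relative to the class, the SD of Fabp7 fell to 0.33 and 0.58 in the Aldh1l1-NuTRAP positive and negative fractions, 0.21, 0.16 and 0.10 in the Cx3cr1-NuTRAP positive and negative fractions and inputs, and 0.27 in tissues. Among genes under 1000 bases alone, its spread was at the 86th and 95.2nd percentile in the Aldh1l1-NuTRAP fractions, and at the 70.4th to 86.7th in the other groups. Both libraries of mouse 290 were also the smallest of their groups, at 11910851 and 8782235 counts, and RNA integrity was not analysed here.

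**Figure D5:**
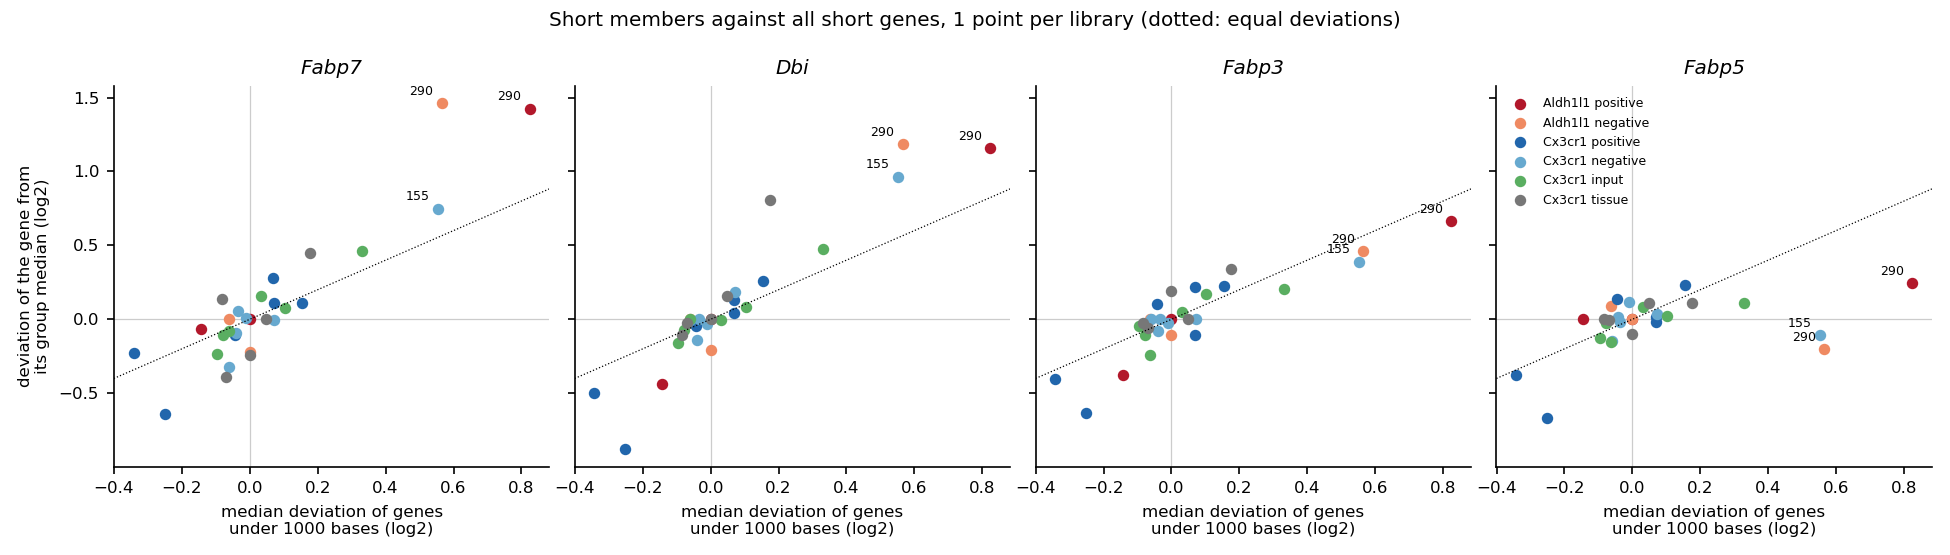
Log2 deviation of a gene from its group median (vertical) against the median deviation of all genes with transcripts under 1000 bases in the same library (horizontal), 1 point for each of 29 libraries, for the 4 short-transcript genes. Fabp7, Dbi and Fabp3 follow the class (r = 0.916, 0.933 and 0.870), Fabp5 less so (r = 0.395), and Fabp7 lies above the dotted line of equal deviations in mouse 290.

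Markers of brain regions also differed for mouse 290. The 7 olfactory bulb markers summed to 106.6 CPM in its positive and 290.8 CPM in its negative fraction, against 37.4 and 48.57 CPM and 118.3 and 134.4 CPM in mice 293 and 294. The 6 cerebellar markers did not single it out (184.6 CPM in its positive fraction, 126.8 and 432.2 CPM in the other two). In whole tissue the olfactory bulb sum was 96.12 CPM in mouse 210 and 59.61 CPM in mouse 194, the mice with the highest Fabp7 there, against 24.52 to 26.71 CPM in the others. The 4 genes of the positive limb of the circadian clock summed to 86.91 CPM in the positive fraction of mouse 290, and to 135.4 and 145.2 CPM in mice 293 and 294. The 10 genes of its output and negative limb were also lowest in mouse 290, at 1289 CPM against 1526 and 1487 CPM. The part of transcript length and region in the level of Fabp7 was not tested.

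The genes whose log2 CPM was most like that of Fabp7 over all 29 libraries, among 14114, were Dbi (r = 0.971), 2610017I09Rik (0.968), H2afv (0.966), S100a16 (0.966) and the metallothionein Mt1 (0.964); these values are dominated by the difference between Aldh1l1-NuTRAP positive fractions and the rest. Of the other genes described here Fabp5 reached 0.835 and Acsbg1 0.802, while Acsl1 (-0.892) and Acsl5 (-0.883) were nearly opposite. With each group's mean subtracted, so that differences between libraries of a group remain, the likest were Ufc1 (0.957), Bcmo1 (0.954), Zcchc17 (0.952), N6amt2 (0.952) and Bola2 (0.952). Dbi was then 29th at 0.932 and Fabp3 reached 0.811, whereas Fabp5 stood at 0.310 and Acsbg1 at -0.226. Acsbg1 thus resembled Fabp7 across groups and not across the animals of a group.

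Genes of neighbouring functions were followed as lists. Of 12 other lipid-binding proteins of the family, 9 had at most 20 counts in every library (Fabp1, Fabp2, Fabp4, Fabp6, Fabp9, Fabp12, Pmp2, Rbp2 and Rbp7). Of 18 other acyl-CoA synthetases and fatty acid transport proteins 9 were tested in the Aldh1l1-NuTRAP line, of which 5 were higher and 1 lower in the positive than in the negative fraction. Acsf2, a synthetase of mitochondria, rose 8.91-fold, Acss1, which activates acetate, 7.31-fold and the transporter Slc27a1 5.22-fold, while the peroxisomal Slc27a2 was 3.56-fold lower at 1.81 ± 0.125 against 8.24 ± 1.45 CPM (SD, n = 3).

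Over all genes tested in this comparison 26.8% were higher and 24.8% lower. The thioesterases, which undo what synthetases do, went both ways, 5 of 9 tested being higher and 2 lower. Acot11 rose 9.62-fold (419 ± 151 against 55.2 ± 8.2 CPM) and Acot1 5.03-fold, and Acot7, the thioesterase abundant in neurons, was 2.61-fold lower (102 ± 8.7 against 336 ± 52.6 CPM). Of the acyl-CoA binding domain genes, 4 of 5 tested were higher and none lower, led by Eci2 (6.39-fold). Among 8 genes of uptake, triglyceride and lipid droplets 5 were higher, with Mgll, the lipase of monoacylglycerols, at 1041 ± 160 against 260.5 ± 12.9 CPM (5.09-fold) and Plin2, a droplet coat protein, at 4.18-fold; Dgat2, which makes triglyceride, was 3.2-fold lower. Of 10 lipid-sensing nuclear receptors and partners 6 were higher and 1 was lower, with Ppara, the fatty acid receptor, 7.98-fold and Srebf1, a regulator of lipid synthesis, 5.36-fold higher. All padj of the genes named in these lists were at most 0.000781.

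In the microglial pulldown against input, the list with the most genes called higher was uptake, triglyceride and lipid droplets, with 7 of 10 tested higher and 1 lower. Cd36, a fatty acid scavenger receptor, measured 6.55 ± 2.1 against 1.99 ± 0.855 CPM (3.34-fold, padj = 0.000196; SD, n = 6), and Dgat1 rose 1.61-fold and Lipe, hormone-sensitive lipase, 1.38-fold. Of 5 endothelial markers 3 were higher and none lower in the same comparison (median log2 fold change 0.61), with a summed 70.68 to 165.8 CPM against 78.78 to 91.67 CPM in input, and their part in these differences was not tested. Over all genes tested 23.2% were higher and 25.6% lower in this comparison. None of 10 thioesterases was higher and 2 were lower, by edgeR's test (Acot11 1.42-fold, Them4 1.22-fold). Of 10 other synthetases and transporters 2 were higher and 3 lower, the furthest being Acss3 at 0.417 ± 0.221 against 1.46 ± 0.414 CPM (3.39-fold lower, padj = 0.000585). The receptors divided evenly, with 4 of 10 higher and 4 lower, among them Ppara (1.54-fold lower).

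Of 3 binding partners of the DBI peptide, 1 was higher and 2 were lower in the Aldh1l1-NuTRAP positive than in the negative fraction. In the Cx3cr1-NuTRAP positive fraction 1 was higher than in input, 1 was lower and 1 was not called. Over all genes tested, 26.8% were higher and 24.8% lower in the first comparison, and 23.2% and 25.6% in the second. Tspo was higher in both pulldowns, at 10.9 ± 1.82 against 3.4 ± 0.998 CPM in the negative fraction of Aldh1l1-NuTRAP mice (4.13-fold, padj = 0.00104) and at 10.9 ± 2.43 against 4.48 ± 0.487 CPM in the input of Cx3cr1-NuTRAP mice (2.46-fold, padj = 1.12e-05). Over positive and negative fractions the log2 ratio of Tspo was 0.86 ± 0.35 higher in the Aldh1l1-NuTRAP line (padj = 0.047) and the difference for Cd36 was -3.43 ± 0.55 (padj = 3.63e-05).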

How the data were processed

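RNA sequencing of 29 libraries was analysed, with the groups as described above. Per the study's methods, strand-specific libraries of polyadenylated RNA were trimmed and aligned with direction to the mm10 mouse genome in Strand NGS 3.1, and the authors normalized with DESeq. The header of the deposited table names RefSeq as its gene model. The deposited table holds 1 row for each gene, with expected counts (82.4% of nonzero raw values are not whole within 1e-06) and, beside them, log2 values that the authors normalized, which were not used here; columns of comparisons by the authors were not used. Promoters came from RefSeq (GRCm38.p6, the same build) and exon lengths from a GENCODE annotation of it.

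Counts were rounded and tested in edgeR 4.0.16 (R 4.3.3; TMM, robust quasi-likelihood, two-sided, group means only) over genes whose counts exceeded 20 in all libraries of 1 or more of the groups compared; p values were adjusted by Benjamini-Hochberg, with 0.05 as the threshold. SE is the absolute log2 fold change over the root of F. Log2 CPM used a prior count of 1. Alternatives were DESeq2 1.42.0, other size factors, filters of none or 100 counts, all 6 groups in 1 fit, the mouse as a block, and each mouse left out. Fractions of a mouse come from the same animal and so are paired; their deviations correlated over 0.1 in 3 of 3 mice for Aldh1l1-NuTRAP fractions (0.484 to 0.693), 3 of 6 for Cx3cr1-NuTRAP positive and negative fractions and 0 of 5 for tissue with positive fraction. Replicates are separate animals. The scripts were tested on simulated data. Python 3.11.15 with scipy 1.17.1 gave permutation tests.

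All 10 genes are named in every comparison; of each list, at most 3 called genes in each direction with the largest change are named. Members and lists were chosen with earlier results of these data known. Genes were assigned length classes from transcripts matching RefSeq mRNAs, a choice made after the data were seen. Counting by strand at overlapping genes is not given in the sources used here, and paralogs were not checked for shared reads. Aldh1l1-NuTRAP inputs and tissue were not analysed here, and some genes of the lists are not reported here.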

Additional observations from a re-analysis of the deposited data

Results flagged for a closer look

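In 40 pairs of a gene and a group of 5 or 6 libraries, 8 had a library whose gap to its neighbour exceeded Dixon's critical value, where chance gives about 1 in 20. The negative fraction of mouse 155 stood apart for Fabp7 (108 CPM), Fabp3 (65.64 CPM) and Dbi (254.9 CPM), each high, and for Acsbg1 (179.2 CPM), low. The tissue of mouse 210 stood apart for Acsl3 (261 CPM) and Acsl1 (35.12 CPM), both low. In positive fractions, Acsl6 was low in mouse 194 (113.8 CPM) and Acsl5 was low in mouse 155 (53.5 CPM). Short genes as a class lay 0.55 above the group median on the log2 scale in the negative fraction of mouse 155, and the part of that in its values was not tested.

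The log2 ratio of positive to negative fraction differed between the lines for all 10 genes by the interaction term of edgeR's test. It was higher in Aldh1l1-NuTRAP mice by 3.861 for Acsbg1, 3.505 for Dbi, 3.258 for Fabp7, 2.855 for Acsl6, 2.427 for Acsl3 and 2.317 for Fabp5. The differences were -1.691 for Acsl5, -1.394 for Fabp3, -1.253 for Acsl4 and -1.19 for Acsl1.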

How the results depend on the processing

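Of 970 values of the 10 genes over all comparisons and alternatives, 886 kept their direction and call, 37 lost the call, 18 gained it and 29 changed sign, none of which had passed the test. With the mouse as a replicate block, Acsl5 against input and against tissue (padj 0.0661 and 0.068) and Fabp7 and Acsl6 in input against tissue (0.0721 and 0.0879) lost their calls, and no other call changed; the SE of Fabp7 in the Aldh1l1-NuTRAP contrast went from 0.62 to 0.11.

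Changes of sign, on the log2 scale, were as follows. Without single mice, Fabp3 against input ranged from -0.07039 to 0.1598 and Dbi from -0.000577 to 0.2589. Against the negative fraction, Fabp5 was 0.02145 with at least 100 counts, 0.01424 with all 6 groups in 1 fit, 0.1552 without mice 155 and 194 and -0.07908 to 0.08106 without single mice. Fabp3 was -0.2153 to 0.00867 without single mice and 0.1481 without both, where Dbi was 0.1165. Against tissue, Fabp7 ranged from -0.03831 to 0.1972 without single mice and Fabp5 was 0.02462 without mice 155 and 194. Dbi against tissue was -0.009614 with RLE factors, -0.001411 with library totals, -0.01334 in DESeq2, -0.01065 with at least 100 counts, -0.0006772 with all 6 groups and -0.08281 to 0.09932 without single mice. In input against tissue, Acsl1 ranged from -0.04232 to 0.07838, Dbi from -0.1871 to 0.1122 and Acsl5 from -0.02196 to 0.04151 without single mice, and Acsl5 was -0.007729 with all 6 groups and -0.009484 without mice 155 and 194.

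Over all genes, leaving out single mice gave 3588 to 9732 called in the Aldh1l1-NuTRAP contrast (6872 with all), 5429 to 6899 against input (6765), 1747 to 4273 against the negative fraction (3351), 5049 to 7649 against tissue (6986), 2569 to 5395 for input against tissue (4143), 7819 to 8632 between positive fractions (8721) and 6675 to 7880 for the interaction (7758). Fewer samples entered each. Input against tissue gave 2453 with all 6 groups in 1 fit, whose cause was not tested, and 2705 without mice 155 and 194. Without single mice, r of Fabp7 ranged from 0.8522 to 0.9734 for input and negative fraction, -0.4985 to -0.331 for input and positive fraction, and -0.478 to -0.1206 for negative and positive fraction; the first was not under an adjusted 0.05 without mouse 155, 192, 194 or 209. With the RefSeq-matched length Fabp7 held 62.49% and Acsbg1 54.23% of their class in Aldh1l1-NuTRAP positive fractions and Acsbg1 31.41% in Cx3cr1-NuTRAP positive fractions, where the longest transcript gave Fabp7 40.98%. Depth limits the tissue of mouse 210, at 4260949 counts.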
